A study of Mus musculus with 6 samples.

Results

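The splicing factor and hnRNP genes were described in cultured neonatal neural stem cells of 3 Ecrg4 genotypes. They were chosen by name alone: every probe was taken whose symbol in the probe annotation began with Sfrs or Srsf and a digit, with Hnrp or Hnrnp, with Snrp, or with Sf3a or Sf3b. This gave 50 probes for 48 genes out of 23466 probes on the array, which carry 16384 named genes, and all 50 had a value on every array. Neural stem cells (NSC) were brain cells of newborn (P0) C57BL6 mice, grown untreated in DMEM/F12 medium containing heparin and the growth factors bFGF and EGF. The groups were labelled Ecrg4 homo, hetero and wt, called homozygous, heterozygous and wild type here, with 2 arrays each. Ecrg4 encodes a small secreted protein. The sources used here do not say how its allele was altered or whether both arrays of a genotype had their own mice or cultures. The p-values below are thus based on array-to-array spread alone, and that spread may be technical.

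Introns are removed from nascent transcripts by the spliceosome, which is built from small nuclear ribonucleoprotein particles. Each of the U1, U2, U4 and U5 particles carries a ring of Sm proteins around its RNA, and the SF3a and SF3b complexes of the U2 particle help it recognise the branch point. SR proteins mostly bind exonic enhancers and favour exon inclusion, whereas many hnRNP proteins bind silencers and favour skipping. In the developing brain, shifts among such RNA-binding proteins accompany the passage from progenitor to neuron, and several SR and hnRNP genes limit their own level through exons that destabilise the message.

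Levels are deposited intensities in arbitrary units, with a median of 30 on every array. The targeted gene, Ecrg4, read 1.4 and 1.3 in the homozygous arrays, 345.5 and 373.9 in the heterozygous arrays and 112.9 and 154.9 in the wild-type arrays. Directions below refer to the arrays as labelled. Background was taken from 663 olfactory receptor probes, of which 538 to 603 had a value on an array, with a 95th percentile of 50.5 to 57.6. The homozygous arrays lay under that level, so Ecrg4 was at least 2.46-fold lower there than in wild type when the level stands in for its own value. This bound was not tested. The values as read gave a log2 fold change of -6.615 (limma adjusted p = 0.000473). Heterozygous arrays lay above wild type (log2 fold change 1.44 ± 0.19, limma adjusted p = 0.0395), a call that held in 6 of 13 alternatives and ended with the replicate block (0.0860), with only the arrays compared (0.136) and without wild-type array 1 (0.112), either heterozygous array (0.153 and 0.225) or either homozygous array (0.136 each). Of 10 measured stem and progenitor markers 9 lay above that level on all arrays, with Fabp7 between 37399.8 and 46801.5, whereas Prom1 did not exceed it on any. Of the other measured markers, 2 of 9 for neurons, 3 of 6 for astrocytes, 3 of 6 for the oligodendrocyte lineage, 1 of 6 for fibroblasts and smooth muscle and 0 of 4 for microglia did. The wild-type arrays differed most from each other, by a median of 0.26 on the log2 scale over all tested probes, where homozygous arrays had 0.16 and heterozygous arrays 0.18. Over the 50 splicing probes the medians were 0.14 in homozygous, 0.13 in heterozygous and 0.17 in wild-type arrays. Median log2 intensities of the tested probes were 5.276 and 5.318 in homozygous, 5.307 and 5.202 in heterozygous and 5.166 and 5.318 in wild-type arrays. The part of these whole-array offsets in the spread was not tested.

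Most genes of the splicing machinery read above background in every genotype, and 0 passed the test between genotypes. Of the 50 probes, 45 exceeded the olfactory receptor level on all 6 arrays, 90.0%, against 40.8% of all tested probes. The 4 that exceeded it on none were those of Hnrnpd, Snrpb2, Sf3a2 and Clasrp, called dim below, and the dimmer of the Snrpg probes exceeded it on 5 arrays. A linear model over all 20434 probes measured on every array (limma, Benjamini-Hochberg adjusted p under 0.05) called 0 of the 50 in homozygous against wild type, where 0.920% of all probes passed (0.431% higher and 0.489% lower). It called 0 in heterozygous against wild type, with 0.749% of all probes (0.411% higher and 0.338% lower), and 0 in homozygous against heterozygous, with 2.69% (1.26% higher and 1.43% lower). A moderated F test over the 3 genotypes also called 0, with 2.26% of all probes. At an unadjusted p under 0.05 there were 12 in homozygous against wild type (19.0% of all probes), 4 of them higher (9.58%) and 8 lower (9.45%). Of the 8347 probes above the olfactory receptor level on all arrays, 690 were higher and 934 lower at that p. Of the 45 splicing probes above it, 3 were higher and 8 lower. There were 2 in heterozygous against wild type (13.5%), 0 higher (6.17%) and 2 lower (7.30%), and 7 in homozygous against heterozygous (18.2%), 3 higher (9.25%) and 4 lower (8.90%). The F test had 9 (20.3%). The lowest adjusted p of any of the 50 was 0.0805, 0.223 and 0.100 in the 3 comparisons and 0.100 in the F test.

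The median log2 fold change of the 50 probes was -0.04 in homozygous against wild type, with 22 above 0, -0.03 in heterozygous against wild type, with 24 above 0, and -0.04 in homozygous against heterozygous, with 23 above 0. The medians over all tested probes were 0.02, -0.01 and 0.04. The extremes of the 50 ran from -0.70 to 0.85, from -0.58 to 0.56 and from -0.65 to 0.68. A log2 fold change over 0.5 in size was read by 10, 3 and 5 of the 50, against 20.3%, 16.2% and 19.0% of all probes. Among probes above the olfactory receptor level on all arrays it was read by 9, 3 and 4 of 45, against 14.5%, 8.30% and 13.2%. Changes of this size were rarely called in a simulation. In simulated data of the first comparison a change of 0.5 log2 units was recovered for 0% of the altered probes, a change of 1 for 2% and a change of 2 for 80%. It altered 50 probes per size among 20434 and drew spreads as fitted over all tested probes. The strictness of the adjustment depends on the share of probes that change, and that share may be larger in the data. There 19.0% of all probes had an unadjusted limma p under 0.05 in this comparison. The splicing probes also spread less between arrays of a genotype. For both reasons the recovered shares may not describe them. In homozygous against heterozygous the fit to the data called Celf2, a gene outside the 50, at 0.95. Homozygous against wild type and heterozygous against wild type share their wild-type arrays.

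**Figure D1:**
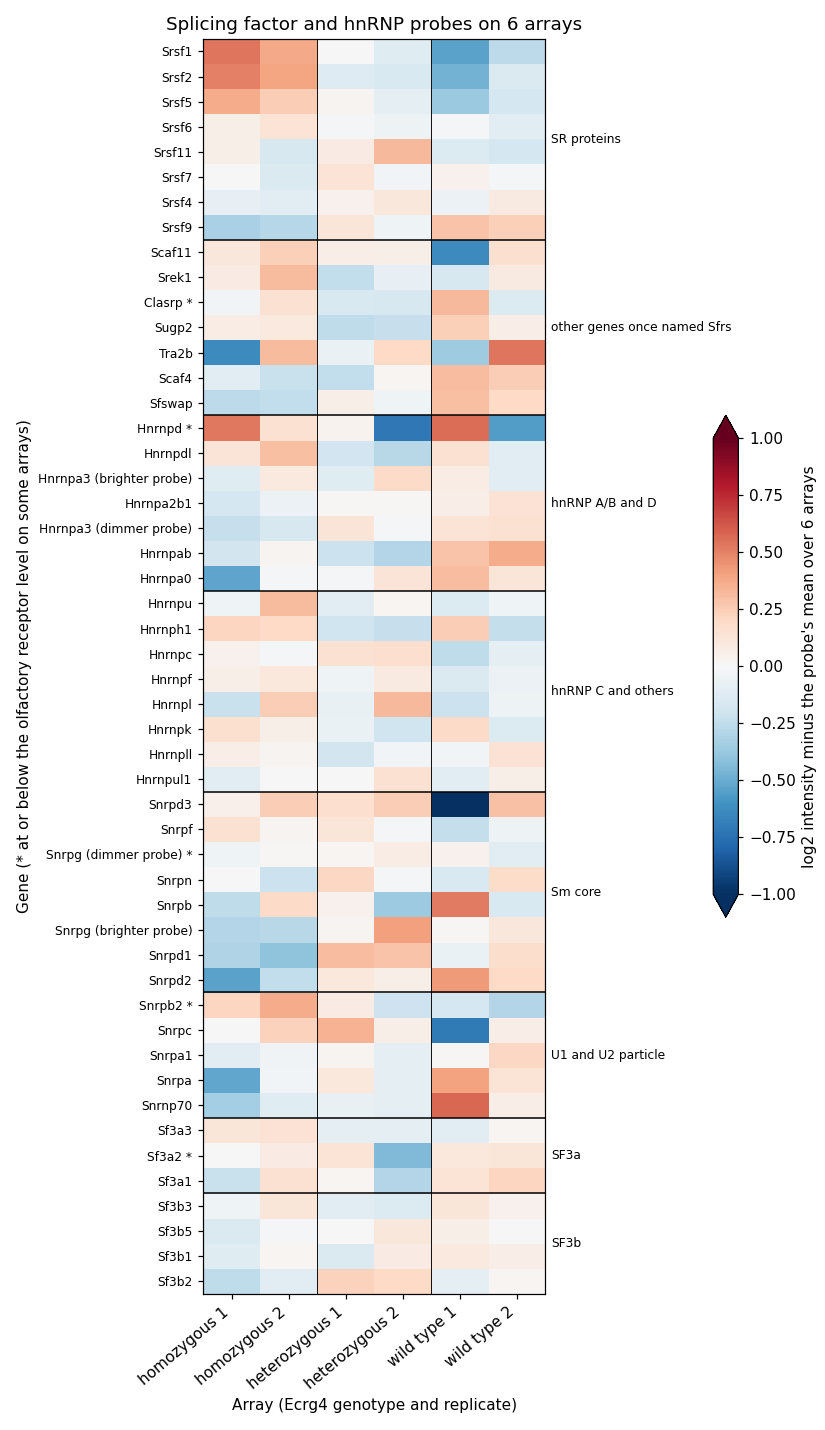
Each row is 1 of the 50 probes and each column 1 array, ordered homozygous, heterozygous and wild type; colour gives log2 intensity minus that probe's mean over the 6 arrays, clipped at 1 and -1, and black lines part the classes. Srsf1, Srsf2 and Srsf5 are red in both homozygous arrays, while the single dark cell of Snrpd3 and the blue cell of Snrpc belong to wild-type array 1.

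The settings of the fit decided whether any of these genes passed in homozygous against wild type. With a pseudocount of 16, 6 passed (5.59% of all probes did), with only probes above the olfactory receptor level in at least 1 genotype 6 of 46 passed (9.31%), and with an intensity trend and robust prior 5 passed (5.35%). Srsf1, Srsf2 and Srsf5 on the higher side and Srsf9 and Snrpd2 on the lower side passed under each of these 3 settings, and Sfswap under the first and second. Quantile normalization gave 1, Srsf1 (1.61%), and 0 in heterozygous against wild type (0.949%), in homozygous against heterozygous (3.51%) and in the F test (3.18%). In homozygous against heterozygous Srsf2 and Snrpd1 passed under the same 3 settings, where 6.73%, 10.6% and 6.64% of all probes passed. In heterozygous against wild type the pseudocount gave 0 (1.50%), the filter 0 (2.24%) and the trend 1, Hnrnpab (1.96%). In the F test these settings gave 8 (7.31%), 4 of 46 (11.0%) and 7 (7.74%).

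Among the 8 SR protein genes, Srsf1, Srsf2, Srsf5 and Srsf6 read higher in both homozygous arrays than in all 4 other arrays, and Srsf4 and Srsf9 read lower. Of all probes 16.2% read higher in this way and 13.2% lower. Among probes above background on all arrays these shares were 16.1% and 20.2%. Of the SR genes named, Srsf1, Srsf2, Srsf5 and Srsf9 had an unadjusted p under 0.05 against wild type. Srsf1 encodes SF2/ASF, a founding SR protein that binds purine-rich enhancers. It read 1263.9 and 1138.5 in homozygous, 877.4 and 804.2 in heterozygous and 604.8 and 728.1 in wild-type arrays. No genotype overlapped another, with homozygous highest and wild type lowest. Srsf1 was 1.81-fold of wild type in homozygous arrays (95% interval 1.37 to 2.39; log2 fold change 0.85 ± 0.17, SE, n = 2 arrays each; limma adjusted p = 0.0805, and 0.00803 to 0.392 over the 13 alternatives). Against heterozygous the log2 fold change of Srsf1 was 0.51 ± 0.17 (limma adjusted p = 0.181), and heterozygous against wild type it was 0.34 ± 0.17 (limma adjusted p = 0.414).

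Srsf2 encodes SC35, an SR protein that recognises both purine- and cytosine-rich enhancers. It read 1492.9 and 1386.9 in homozygous, 964.0 and 951.6 in heterozygous and 759.8 and 954.4 in wild-type arrays. Both homozygous arrays lay above the other 4, and the heterozygous and wild-type arrays overlapped. Srsf2 was 1.69-fold of wild type in homozygous arrays (95% interval 1.27 to 2.24; limma adjusted p = 0.105, and 0.0146 to 0.425 over the alternatives), and against heterozygous its log2 fold change was 0.59 ± 0.17 (limma adjusted p = 0.144).

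Srsf5 encodes SRp40, an SR protein known in rat liver as a growth-induced gene. It read 3760.7 and 3452.3 in homozygous, 2972.0 and 2729.0 in heterozygous and 2249.6 and 2580.2 in wild-type arrays, again with no overlap and in the order of Srsf1. Srsf5 was 1.50-fold of wild type in homozygous arrays (95% interval 1.15 to 1.94; limma adjusted p = 0.141, and 0.0285 to 0.489 over the alternatives).

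Srsf9 encodes SRp30c, a small SR protein closely related to SF2/ASF, and its order was the opposite. It read 4898.4 and 5022.4 in homozygous, 6672.7 and 5952.4 in heterozygous and 7477.7 and 7210.4 in wild-type arrays, with no overlap. The log2 fold change of Srsf9 in homozygous against wild type was -0.57 ± 0.15 (limma adjusted p = 0.132, and 0.0224 to 0.464 over the alternatives), or 1.48-fold lower.

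The remaining SR proteins differed less. Srsf6, Srsf11, Srsf7 and Srsf4, also exon-binding regulators, had log2 fold changes of 0.16, 0.11, -0.08 and -0.11 in homozygous against wild type, each with an SE of 0.17 or less. Srsf11 stood out in the heterozygous arrays, at 265.7 and 313.5 against 228.2 and 222.4 in wild type (log2 fold change 0.36 ± 0.17, limma adjusted p = 0.394), and read 261.9 and 224.9 in homozygous arrays. Srsf1 and Srsf2 lie on chromosome 11, Srsf5 on chromosome 12 and Srsf9 on chromosome 5.

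**Figure D2:**
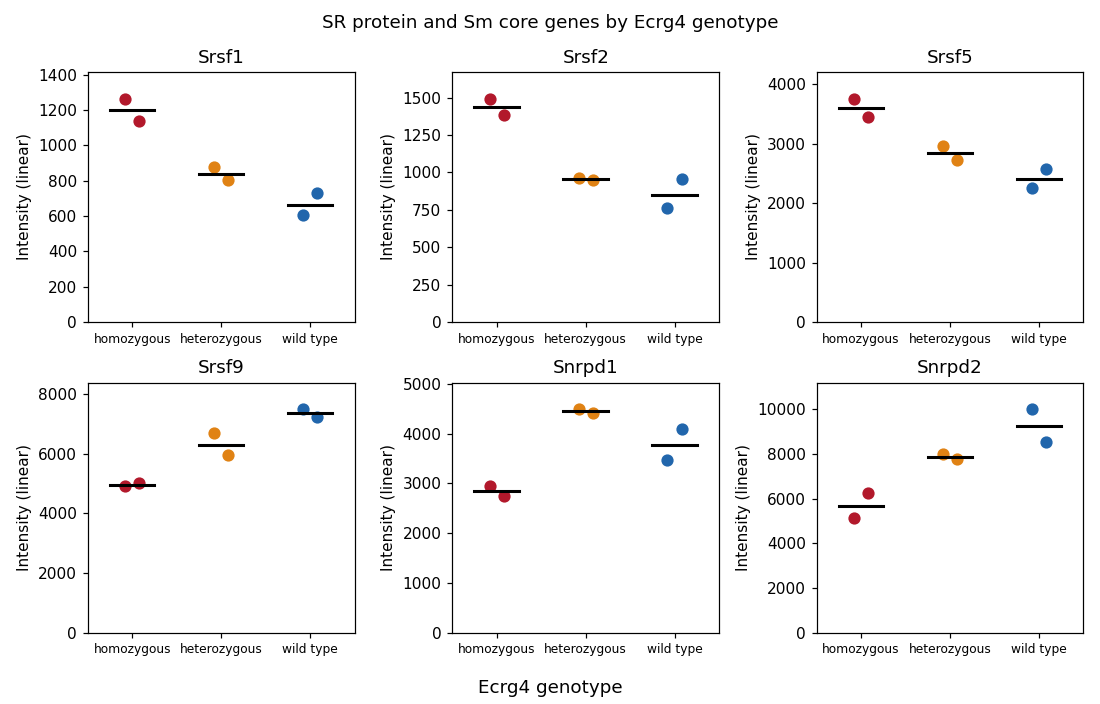
Intensity on a linear axis starting at 0 for 4 SR protein genes and 2 Sm core genes; each dot is 1 array and each bar the geometric mean of the 2 arrays of a genotype. Srsf1 and Srsf5 step down and Srsf9 and Snrpd2 step up from left to right without overlap, while Snrpd1 is highest in the heterozygous arrays.

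The promoters of Srsf1, Srsf2, Srsf5, Srsf9 and Snrpd2, an Sm gene described below, are shown because these 5 genes passed in homozygous against wild type under 3 alternative settings. Each window runs from 250 bases before to 50 after the gene's start (RefSeq, GRCm38.p6), 5′ to 3′. Capitals mark, on either strand, the ETS-type word CCGGAA, the CCAAT box, the GC box GGGCGG and the TATA box TATAAA. Matches may overlap, as CCGGAA with a GC box in Srsf5 and neighbouring GC boxes in Srsf2.
Srsf1, chr11:88047123-88047422, plus strand: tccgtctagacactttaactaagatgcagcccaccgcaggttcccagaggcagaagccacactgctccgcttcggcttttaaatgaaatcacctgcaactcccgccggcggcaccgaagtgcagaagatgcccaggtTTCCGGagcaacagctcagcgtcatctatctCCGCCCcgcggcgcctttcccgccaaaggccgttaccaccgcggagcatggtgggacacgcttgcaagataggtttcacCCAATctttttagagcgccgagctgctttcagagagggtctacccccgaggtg
Srsf2, chr11:116853045-116853344, minus strand: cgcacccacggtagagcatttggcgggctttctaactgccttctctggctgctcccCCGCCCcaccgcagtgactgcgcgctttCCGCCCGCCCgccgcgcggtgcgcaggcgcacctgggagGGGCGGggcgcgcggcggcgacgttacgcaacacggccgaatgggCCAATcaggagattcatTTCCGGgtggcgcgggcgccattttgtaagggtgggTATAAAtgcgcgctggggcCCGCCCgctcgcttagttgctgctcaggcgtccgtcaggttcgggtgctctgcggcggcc
Srsf5, chr12:80945249-80945548, plus strand: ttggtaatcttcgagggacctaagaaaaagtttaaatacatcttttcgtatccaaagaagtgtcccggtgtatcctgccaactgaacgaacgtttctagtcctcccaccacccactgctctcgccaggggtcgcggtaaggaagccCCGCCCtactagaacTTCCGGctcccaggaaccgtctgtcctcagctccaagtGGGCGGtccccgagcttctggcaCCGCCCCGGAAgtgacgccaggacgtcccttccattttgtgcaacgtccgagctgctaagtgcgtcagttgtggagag
Srsf9, chr5:115326927-115327226, plus strand: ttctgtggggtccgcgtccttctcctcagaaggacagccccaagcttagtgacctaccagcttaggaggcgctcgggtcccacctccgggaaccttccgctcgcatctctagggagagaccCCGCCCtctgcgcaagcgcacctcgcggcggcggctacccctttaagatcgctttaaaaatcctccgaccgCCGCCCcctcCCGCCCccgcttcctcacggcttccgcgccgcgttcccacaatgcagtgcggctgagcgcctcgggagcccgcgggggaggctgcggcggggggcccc
Snrpd2, chr7:19149588-19149887, plus strand: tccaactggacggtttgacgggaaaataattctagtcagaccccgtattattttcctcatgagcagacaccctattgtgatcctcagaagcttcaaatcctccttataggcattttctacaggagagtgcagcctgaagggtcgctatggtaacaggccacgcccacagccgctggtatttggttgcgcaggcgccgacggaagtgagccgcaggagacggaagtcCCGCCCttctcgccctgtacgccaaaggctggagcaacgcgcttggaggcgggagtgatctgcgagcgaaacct
The word CCGGAA occurred 1 time each in Srsf1 and Srsf2, 2 times in Srsf5, and 0 times in Srsf9 and Snrpd2. Only this full word was counted, and shorter GGAA matches in the windows of Srsf9 and Snrpd2 are not marked. The GC box occurred in all 5, with 5 matches in Srsf2, 3 each in Srsf5 and Srsf9 and 1 each in Srsf1 and Snrpd2. Srsf2 also held 1 TATA box, and Srsf1 and Srsf2 held 1 CCAAT box each. Of the 48 genes 44 had a promoter entry, with 63 windows in all. The word CCGGAA was found in 50.8% of these windows, against 14.9% of all 32851 promoter windows, and the GC box in 69.8% against 35.7%. The CCAAT box was found in 36.5% against 37.4% and the TATA box in 7.94% against 13.6%. The windows of splicing genes were also richer in G and C, with a median of 61.0% against 52.7%, and the part of base composition in these shares was not tested. A match describes the letters and is not evidence of binding.

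Among the 7 other genes once named Sfrs, which are related to SR proteins or bind them, Sfswap and Scaf4 were lower in homozygous arrays. Sfswap, the mammalian relative of the fly splicing regulator suppressor of white apricot, read 244.8 and 247.5 in homozygous, 305.8 and 286.1 in heterozygous and 361.5 and 338.4 in wild-type arrays. The genotypes of Sfswap did not overlap, and its log2 fold change in homozygous against wild type was -0.51 ± 0.14 (limma adjusted p = 0.152, and 0.0321 to 0.483 over the alternatives). Scaf4, which binds the tail of RNA polymerase II, read 70.0 and 64.4 in homozygous, 63.4 and 76.4 in heterozygous and 93.1 and 89.0 in wild-type arrays. Here both other genotypes lay below wild type and overlapped each other (log2 fold changes -0.44 ± 0.16 in homozygous and -0.39 ± 0.16 in heterozygous, limma adjusted p = 0.224 and 0.372).

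Sugp2, a G-patch protein gene, was lowest in the heterozygous arrays, at 57.5 and 58.3 against 80.7 and 71.7 in wild type (log2 fold change -0.39 ± 0.15, limma adjusted p = 0.330), and read 72.2 and 73.1 in homozygous arrays. Tra2b, which encodes the exon enhancer binding protein transformer 2 beta, read 111.5 and 216.6 in homozygous, 165.5 and 199.7 in heterozygous and 135.9 and 251.5 in wild-type arrays. Its spread within a genotype exceeded every difference between genotypes, and the array numbered 1 was the lower one in all 3. Scaf11, a partner of SC35, read 53.6 and 93.3 in the wild-type arrays and between 86.9 and 98.7 elsewhere, so wild-type array 1 alone set it apart. Srek1 had a log2 fold change of 0.23 in homozygous against wild type, and the dim Clasrp read between 36.6 and 51.0.

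In the hnRNP A/B and D families, 4 of 7 probes were below 0 and 3 above 0 in homozygous against wild type. Hnrnpab, an A/B-type protein that also binds DNA elements, had the lowest value of any member in heterozygous against wild type. It read 7857.1 and 9095.1 in homozygous, 7664.6 and 7283.3 in heterozygous and 10875.4 and 11542.4 in wild-type arrays. Both other genotypes lay below wild type without overlap. The log2 fold change of Hnrnpab was -0.58 ± 0.15 in heterozygous (limma adjusted p = 0.223, and 0.0362 to 0.654 over the alternatives) and -0.41 ± 0.15 in homozygous arrays (limma adjusted p = 0.231), and with quantile normalization the second was -0.24.

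Hnrnpa2b1, which binds RNA transport signals, read 9473.6 and 10305.9 in homozygous, 10798.1 and 10775.2 in heterozygous and 11240.9 and 11842.8 in wild-type arrays. The genotypes did not overlap, but the step was small (homozygous against wild type -0.22 ± 0.14, limma adjusted p = 0.436). The related Hnrnpa0 read 536.7 and 765.4 in homozygous, 766.5 and 849.2 in heterozygous and 956.9 and 844.3 in wild-type arrays (homozygous against wild type -0.49 ± 0.21, limma adjusted p = 0.278). Hnrnpa3 had 2 probes that gave different values for this comparison. The dimmer of them read 2107.0 and 2213.4 in homozygous against 2718.7 and 2757.0 in wild-type arrays (-0.34 ± 0.15), whereas the brighter read 4212.3 and 4883.0 against 4802.9 and 4221.9 (0.01 ± 0.18). Near-identical copies of hnRNP genes may share a probe, and probe sequences were not used here.

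Hnrnpdl, a relative of the AU-rich element binding protein AUF1, was lowest in heterozygous arrays. It read 952.3 and 1070.3 in homozygous, 761.3 and 717.1 in heterozygous and 969.6 and 804.2 in wild-type arrays. Its log2 fold change in homozygous against heterozygous was 0.45 ± 0.17 (limma adjusted p = 0.230). Hnrnpd, which encodes AUF1 itself, was dim, between 4.4 and 10.6 on the 6 arrays, and its differences lay under the background level.

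The 8 other hnRNP genes were close to even in homozygous against wild type, with log2 fold changes between -0.02 and 0.23 and 0 at an unadjusted p under 0.05. Hnrnpc, whose protein binds uridine tracts and keeps cryptic exons out, read 6471.6 and 6231.6 in homozygous, 6966.4 and 7035.2 in heterozygous and 5271.3 and 5860.9 in wild-type arrays. Both wild-type arrays of Hnrnpc lay lowest (heterozygous against wild type 0.33 ± 0.14, limma adjusted p = 0.379; homozygous against wild type 0.19 ± 0.14, limma adjusted p = 0.506). Hnrnpf, a binder of guanine runs, read 7508.2 and 7746.7 in homozygous, 7005.3 and 7662.2 in heterozygous and 6534.6 and 6924.3 in wild-type arrays.

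Hnrnph1, a close relative of Hnrnpf, read 2664.1 and 2642.6 in homozygous, 2007.2 and 1960.8 in heterozygous and 2723.6 and 1953.8 in wild-type arrays. The wild-type arrays of Hnrnph1 lay near a different genotype each, and homozygous against heterozygous gave 0.42 ± 0.19 (limma adjusted p = 0.324). Hnrnpl, a CA-repeat binding repressor, varied within genotypes, at 764.2 and 1059.1 in homozygous, 849.7 and 1118.7 in heterozygous and 770.5 and 861.2 in wild-type arrays. Hnrnpu, Hnrnpk, Hnrnpll and Hnrnpul1 had log2 fold changes of 0.23, 0.08, -0.01 and -0.02 in homozygous against wild type.

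The Sm core proteins form the ring on which the U1, U2, U4 and U5 particles are assembled, and the probes of Snrpd1 and Snrpd2 and the brighter probe of Snrpg were lower in both homozygous arrays than in the other 4, as were 13.2% of all probes and 20.2% of those above background on all arrays. The dimmer Snrpg probe was not. Snrpd2 (SmD2) read 5140.4 and 6278.0 in homozygous, 7999.9 and 7770.4 in heterozygous and 10003.3 and 8548.1 in wild-type arrays. The genotypes did not overlap. The log2 fold change of Snrpd2 was -0.70 ± 0.17 in homozygous against wild type, or 1.63-fold lower (limma adjusted p = 0.123, and 0.0163 to 0.471 over the alternatives), and -0.47 ± 0.17 against heterozygous (limma adjusted p = 0.226).

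Snrpd1 (SmD1), whose protein pairs with SmD2 in the ring, read 2944.6 and 2740.4 in homozygous, 4484.6 and 4410.9 in heterozygous and 3467.4 and 4094.6 in wild-type arrays. It too was lowest in homozygous but was highest in heterozygous arrays. The log2 fold change of Snrpd1 in homozygous against heterozygous was -0.65 ± 0.16 (limma adjusted p = 0.100, and 0.0134 to 0.447 over the alternatives) and against wild type -0.41 ± 0.16 (limma adjusted p = 0.236).

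Snrpg (SmG) had 2 probes. The brighter read 11839.7 and 12022.9 in homozygous, 14818.6 and 19368.6 in heterozygous and 14663.1 and 15769.6 in wild-type arrays (homozygous against heterozygous -0.51 ± 0.18, limma adjusted p = 0.212). With quantile normalization this difference was -0.26. The dimmer read between 55.1 and 62.7 on all arrays, near the olfactory receptor level, and gave -0.06 ± 0.15 for the same comparison. Snrpd3 (SmD3) read 1929.0 and 2213.1 in homozygous, 2097.4 and 2209.4 in heterozygous and 927.9 and 2284.0 in wild-type arrays. Its log2 fold changes against wild type, 0.51 ± 0.40 in homozygous and 0.56 ± 0.40 in heterozygous, rested on wild-type array 1, and without that array they were -0.15 and -0.09.

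Snrpn encodes SmN, the brain-enriched and imprinted relative of SmB. It read 742.4 and 642.1 in homozygous, 862.0 and 734.3 in heterozygous and 671.4 and 847.2 in wild-type arrays, and all genotypes overlapped (homozygous against wild type -0.13 ± 0.19, limma adjusted p = 0.747). Snrpb, the gene of SmB, read 1442.1 and 1958.3 in homozygous, 1773.2 and 1338.0 in heterozygous and 2467.4 and 1548.7 in wild-type arrays, with overlap as well. Snrpf (SmF) read between 58.4 and 76.7, just above background.

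Of the proteins particular to the U1 and U2 particles, the U1 genes Snrnp70 and Snrpa read lower in homozygous than in wild-type arrays. Snrnp70 (U1-70K), which contacts SR proteins at the 5′ splice site, read 1447.1 and 1683.7 in homozygous, 1736.9 and 1712.9 in heterozygous and 2725.3 and 1922.0 in wild-type arrays. The log2 fold change of Snrnp70 in homozygous against wild type was -0.55 ± 0.21 (limma adjusted p = 0.230), and it was -0.30 without wild-type array 1. In heterozygous against wild type it was -0.41 ± 0.21, and -0.16 without that array. Snrpa, the gene of the U1 A protein, read 730.6 and 1029.8 in homozygous, 1125.1 and 983.5 in heterozygous and 1383.1 and 1151.6 in wild-type arrays (homozygous against wild type -0.54 ± 0.22, limma adjusted p = 0.251, and -0.79 to -0.29 over the alternatives).

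Snrpc, the gene of the U1 C protein, which stabilises pairing with the 5′ splice site, read 977.0 and 1141.1 in homozygous, 1240.6 and 1013.6 in heterozygous and 597.8 and 1023.4 in wild-type arrays. The single low value was again in wild-type array 1, and the log2 fold change in heterozygous against wild type, 0.52 ± 0.28, was 0.13 without it. The U2 gene Snrpa1 read between 1748.7 and 2176.9. Its partner Snrpb2 read 31.1 and 34.7 in homozygous, 28.3 and 23.2 in heterozygous and 23.7 and 21.9 in wild-type arrays, all under the background level.

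The SF3a and SF3b genes, whose products hold the U2 particle at the branch point, were close to even. In homozygous against wild type their 7 log2 fold changes lay between -0.21 and 0.18. Sf3b1, the largest SF3b subunit and a frequent target of mutation in blood cancers, read 96.8 and 106.9 in homozygous, 95.3 and 111.6 in heterozygous and 112.8 and 110.3 in wild-type arrays (homozygous against wild type -0.13 ± 0.16, 95% interval of the fold 0.70 to 1.19). Sf3b2 was the exception in homozygous against heterozygous. It read 2086.3 and 2312.7 in homozygous, 2916.0 and 2853.8 in heterozygous and 2338.2 and 2514.3 in wild-type arrays, with both heterozygous arrays highest (-0.39 ± 0.15, limma adjusted p = 0.235). Sf3a3 read 1375.8 and 1392.7 in homozygous, 1188.4 and 1188.4 in heterozygous and 1171.1 and 1278.0 in wild-type arrays.

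**Figure D3:**
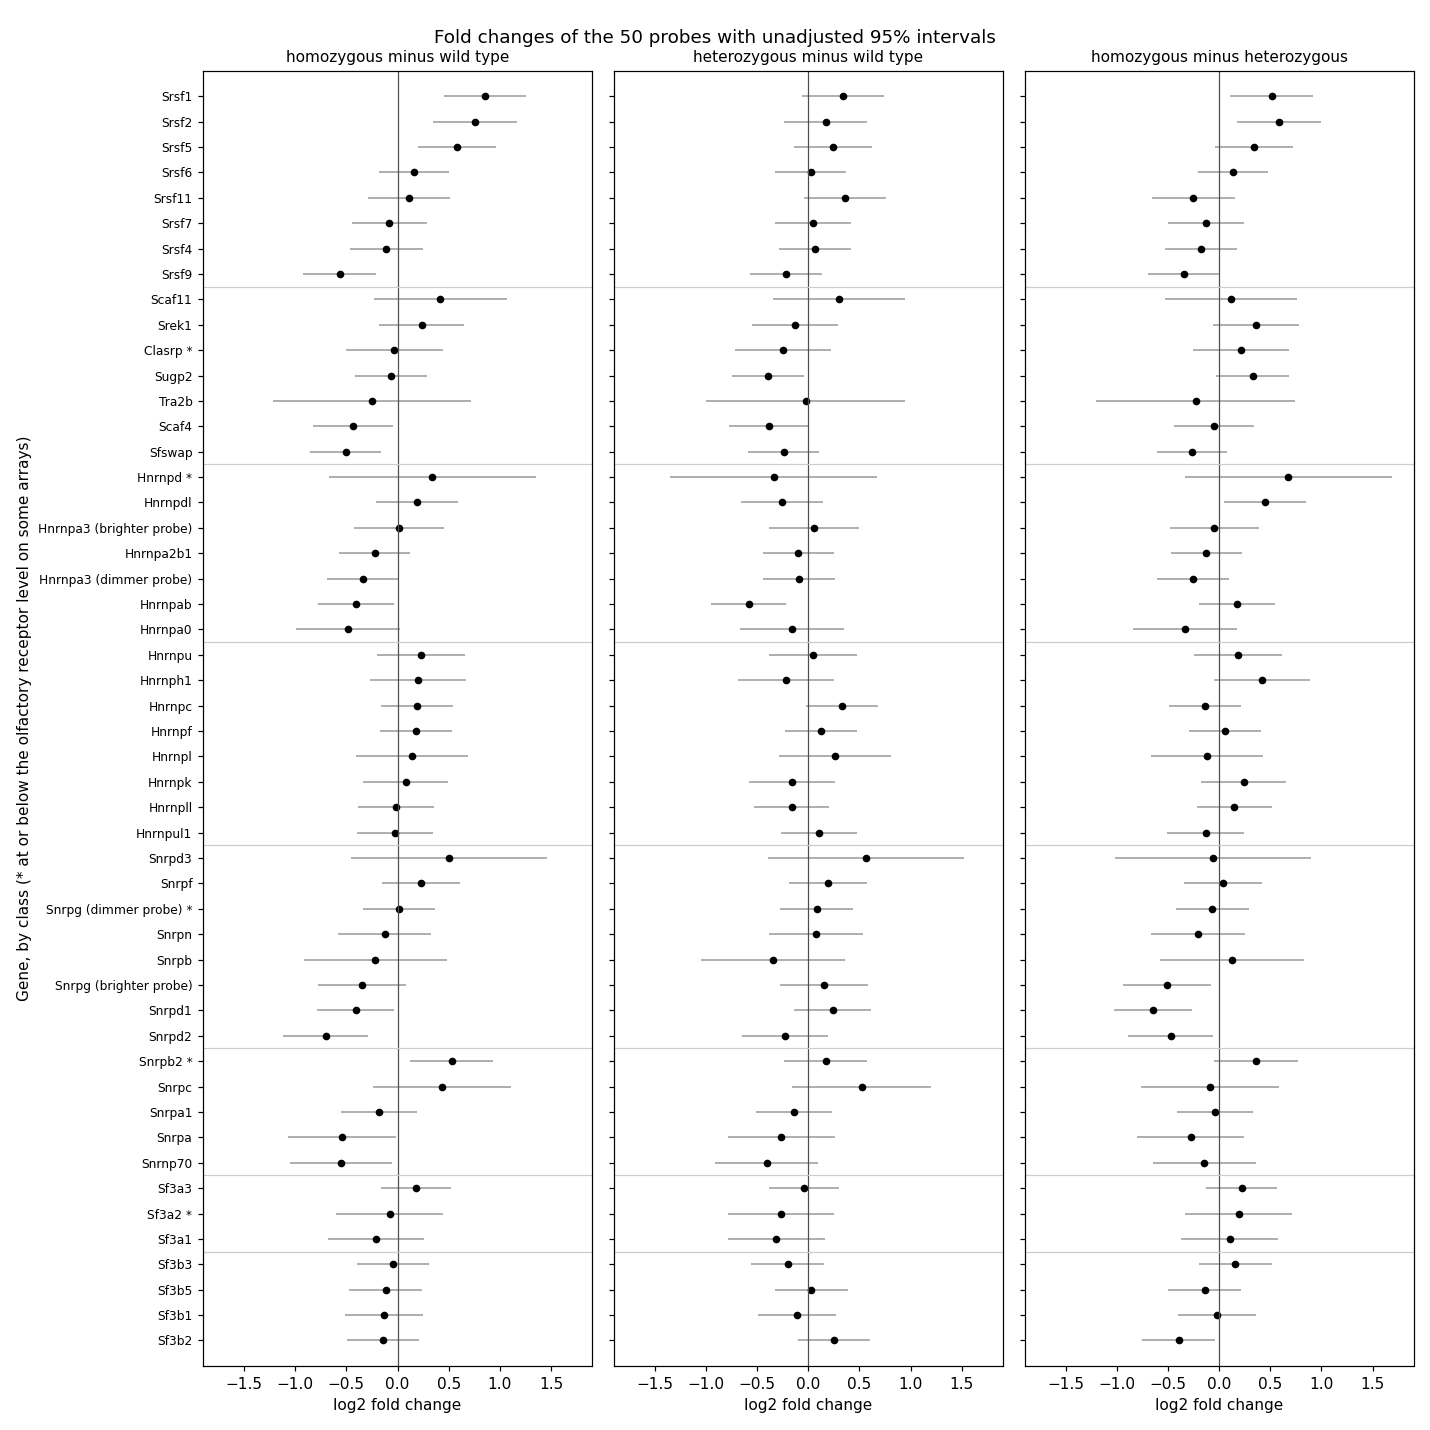
Log2 fold change (dot) and unadjusted 95% interval of the limma fit (line) of each of the 50 probes in the 3 comparisons, with 2 arrays per genotype and classes parted by grey lines. In homozygous minus wild type the intervals of Srsf1, Srsf2, Srsf5, Srsf9, Sfswap and Snrpd2 clear 0 by the widest margins, and no probe passed after adjustment.

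The classes were set side by side by their median over probes. In homozygous against wild type the SR proteins had a median log2 fold change of 0.13 (5 of 8 above 0) and the other hnRNP genes 0.16 (6 of 8 above 0). The hnRNP A/B and D probes had -0.22 (3 of 7 above 0), the Sm core -0.17 (3 of 8) and the U1 and U2 genes -0.18 (2 of 5), with -0.12 for SF3b, -0.08 for SF3a and -0.07 for the genes once named Sfrs. In homozygous against heterozygous the Sm core had -0.14, with 2 of 8 above 0, and the SR proteins 0.01. In heterozygous against wild type the Sm core had 0.12 (6 of 8 above 0), the SR proteins 0.12 (7 of 8) and the other hnRNP genes 0.07 (5 of 8), while the hnRNP A/B and D probes had -0.16 (1 of 7), the U1 and U2 genes -0.14 (2 of 5), SF3a -0.27, SF3b -0.04 and the genes once named Sfrs -0.24 (1 of 7). No test was made of these medians.

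**Figure D4:**
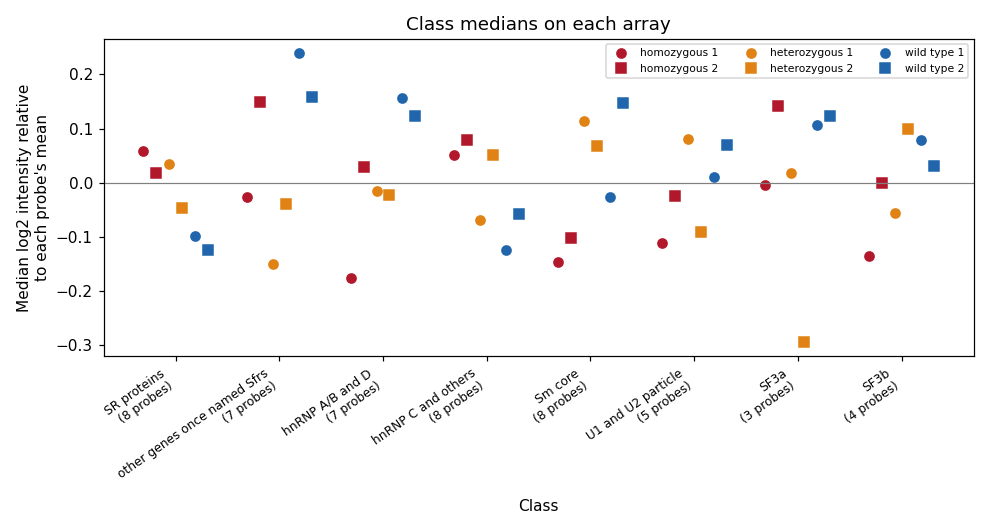
Median over the probes of a class of log2 intensity minus each probe's own mean, for every array; colour gives the genotype and shape the replicate. The wild-type arrays are lowest for SR proteins, at -0.10 and -0.12, and the homozygous arrays are lowest for the Sm core, at -0.15 and -0.10.

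Arrays of 2 genotypes often failed to overlap in the whole table, so that counts of such genes carry little weight alone. Pairwise shares, and those for heterozygous or wild-type arrays beyond the other 4, are over all probes. They were not taken among probes above background on all arrays, which held 45 of the 50 and leaned lower in homozygous arrays. Between homozygous and wild type 27 of the 50 probes did not overlap, against 50.5% of all probes, with 9 higher (25.7% of all) and 18 lower (24.8% of all). Between heterozygous and wild type there were 22, against 45.5%, with 8 higher (21.0%) and 14 lower (24.5%), and between homozygous and heterozygous 33, against 54.6%, with 17 higher (28.7%) and 16 lower (25.9%). Both homozygous arrays lay above the other 4 for 6 probes (16.2% of all; 16.1% of those above background on all arrays) and below them for 12 (13.2% and 20.2%). Both heterozygous arrays lay above the others for 4, Hnrnpc, Sf3b2, Snrpd1 and Srsf11 (11.1%), and below for 5, Clasrp, Hnrnpab, Hnrnpdl, Sf3b3 and Sugp2 (10.7%). Both wild-type arrays lay above the others for 9 (12.2%) and below for 5, Hnrnpc, Hnrnpf, Snrpf, Srsf1 and Srsf5 (9.74%). The order homozygous over heterozygous over wild type without overlap was held by 2, Srsf1 and Srsf5 (3.60% of all; 4.27% of those above background on all arrays), and the opposite order by 6, Hnrnpa2b1, the dimmer Hnrnpa3 probe, Sfswap, Snrnp70, Snrpd2 and Srsf9 (3.56% of all; 5.71% of the probes above background on all arrays). Ecrg4 itself held neither order, as its heterozygous arrays read highest.

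Other genes of the splicing pathway were taken from a list of 114 further factors, of which 100 were measured by 103 probes. In homozygous against wild type 0 of the 103 passed, with 14 higher (9.58% of all probes) and 6 lower (9.45%) at an unadjusted p under 0.05. In heterozygous against wild type 0 passed, with 2 higher (6.17%) and 4 lower (7.30%) at that unadjusted p. In homozygous against heterozygous 1 passed in the higher direction, where 1.26% of all probes did, and 0 in the lower, with 9 higher (9.25%) and 4 lower (8.90%) at that unadjusted p. It was Celf2, a GU-rich element binding regulator of splicing in brain and muscle. Celf2 read 371.9 and 365.7 in homozygous, 184.4 and 198.6 in heterozygous and 321.0 and 341.0 in wild-type arrays. The heterozygous arrays of Celf2 lay well below all others, and the log2 fold change in homozygous against heterozygous was 0.95 ± 0.14 (limma adjusted p = 0.0310). The call ended without homozygous array 1 or 2 (0.211 and 0.219) or heterozygous array 1 or 2 (0.146 and 0.143), with limma adjusted p as given. The list's median log2 fold changes were 0.12, 0.01 and 0.12 in the 3 comparisons, in the order homozygous against wild type, heterozygous against wild type and homozygous against heterozygous.

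Markers of other cell types and of cycling were read on the same arrays. The 14 measured cycling genes had median log2 fold changes of 0.05 in homozygous against wild type, 0.12 in heterozygous against wild type and -0.05 in homozygous against heterozygous. Of them 0, 0 and 1 passed, against 0.920%, 0.749% and 2.69% of all probes. The 1 was Ccnb2, a mitotic cyclin, which read 755.2 and 658.3 in homozygous, 1650.0 and 1409.2 in heterozygous and 1297.7 and 1521.4 in wild-type arrays (homozygous against heterozygous -1.11, limma adjusted p = 0.0339; homozygous against wild type -0.995, limma adjusted p = 0.0685). The 14 genes summed to between 23588.8 and 24539.7 in homozygous, 25368.9 and 28015.5 in heterozygous and 24433.0 and 24734.5 in wild-type arrays. The 9 neuron markers summed to between 5208.9 and 5276.2 in homozygous, 4052.9 and 5379.5 in heterozygous and 2032.5 and 2047.6 in wild-type arrays, mostly through Gap43, and 7 of them, Dcx, Elavl3, Map2, Snap25, Stmn2, Syt1 and Tubb3, lay under background on every array. The 6 fibroblast and smooth muscle markers summed to between 153.1 and 184.4 in homozygous, 349.6 and 359.3 in heterozygous and 1000.4 and 1295.3 in wild-type arrays, mostly through Acta2, with Col1a1, Col1a2, Col3a1, Dcn and Lum under background on every array. The 6 astrocyte markers summed to between 7542.9 and 8464.8, 8938.4 and 9008.8, and 9917.9 and 11014.3 in homozygous, heterozygous and wild-type arrays. Aldoc made up most of that sum and was highest in wild type, at 6290.7 and 5543.8 in homozygous, 5614.0 and 5599.4 in heterozygous and 8372.1 and 8891.1 in wild-type arrays. Gja1, S100b, Aqp4 and Aldh1l1 were instead highest in heterozygous arrays. Of these, Aldh1l1 lay under background on every array and Aqp4 exceeded it on 1 array only. The 6 oligodendrocyte lineage markers summed to between 12049.1 and 14367.0, 12100.3 and 13750.9, and 10285.5 and 11019.8 in the same genotypes. The 10 stem cell markers summed to between 62148.3 and 69086.8 over all arrays, mostly through Fabp7 and Vim. Notch1 was lower in homozygous against heterozygous (-0.81, limma adjusted p = 0.0450). In the comparison order used for cycling genes, 0, 0 and 1 stem cell, 2, 1 and 1 neuron and 0, 0 and 1 astrocyte markers passed. For microglia 1, 1 and 1 passed, for fibroblasts and smooth muscle 1, 1 and 1, and for the oligodendrocyte lineage 0, 0 and 0. The 4 microglia markers with a value on all arrays lay under background on at least 5 of them, and Itgam was blank on 5 arrays. The astrocyte sum, and the fibroblast and smooth muscle sum through Acta2, held the order of Srsf9 and Snrpd2. In both, homozygous lay below heterozygous and heterozygous below wild type. Aldoc itself did not hold it, as its homozygous and heterozygous arrays overlapped. The part of these markers in the differences of Srsf9 and Snrpd2 was not tested. In bulk cultures fewer cells of a type and less RNA per cell cannot be told apart.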

How the data were processed

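RNA of 6 neural stem cell samples was amplified to amino allyl aRNA, coupled to a dye and read on 1-colour arrays, per the labels' protocols, although another label field names biotin. The authors deposited intensity values on a linear scale, with a median of 30 in every column, so each array was taken to be scaled to that median. The background correction, the scanner and the rule for blank cells are not stated in the sources used here. Intensities were log2-transformed without a pseudocount, and a model was fitted to the 20434 probes measured on all 6 arrays by limma 3.58.1 in R 4.3.3, with 1 coefficient per genotype (3 residual degrees of freedom, prior 3.27), two-sided tests and Benjamini-Hochberg adjustment over all tested probes. The number of arrays limits the precision. Errors are standard errors of the fit. The fit was tested on simulated data.

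Symbols came from the platform's annotation (16625 probes with 1 symbol, 0 with several, 6841 unnamed here) and were updated through RefSeq synonyms of GRCm38.p6; 32 of the 50 splicing probes were renamed. The members and lists were chosen with earlier results of these data known. Genes were named by these rules: members past the threshold, the 4 highest and 4 lowest members per comparison among probes above background on all arrays, and leading or most variable members of each class. Members at an unadjusted p under 0.05, and others described to complete a class, were added after their values were seen. Lists covered other splicing genes, cycling genes and markers of 6 cell types. Alternatives were equal array medians, quantile normalization, a pseudocount of 16, a filter on dim probes, an intensity trend with robust prior, fits of the compared arrays alone, the replicate number as a block, and leaving out each array. Scanner files were not used here.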

Additional observations from a re-analysis of the deposited data

How the results depend on the processing

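The count of splicing probes past the threshold was 0 in every comparison with equal array medians, with only the arrays compared and with the replicate block. It was 1, 6, 6 and 5 in homozygous against wild type with quantile normalization, a pseudocount of 16, the filter on dim probes and the intensity trend with robust prior. In homozygous against heterozygous it was 2 under each of the last 3, in heterozygous against wild type 1 with the trend, and in the F test 8, 4 and 7 under the last 3. Leaving out 1 array gave 0 in each pairwise comparison, and 0 to 1 in the F test (1 without wild-type array 2). The median of the splicing probes in homozygous against heterozygous was 0.063 with quantile normalization, and -0.086 to 0.057 with 1 array left out. Quantile normalization gave log2 fold changes in homozygous against wild type of -0.434 for Srsf9 and -0.552 for Snrpd2. For Srsf1, Srsf2 and Srsf5 it gave 0.886, 0.809 and 0.679. In homozygous against heterozygous it gave -0.491 for Snrpd1, -0.297 for Snrpd2 and -0.264 for the brighter Snrpg probe.

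Over all probes, the 188 calls of homozygous against wild type became 314 with equal medians, 328 with quantile normalization, 1143 with the pseudocount, 875 with the filter, 1094 with the trend and 59 with only the arrays compared; without 1 array they were 1 to 224. The 153 of heterozygous against wild type became 306 with the pseudocount, 400 with the trend and 40 with only the arrays compared, and 18 to 340 without 1 array. The 549 of homozygous against heterozygous became 1376, 998 and 1357 with the pseudocount, the filter and the trend, and 6 to 680 without 1 array. The 462 of the F test became 721 with equal medians, 1493, 1032 and 1582 with the same 3 settings, and 24 to 843 without 1 array.

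With the replicate number as a block the calls were 47, 51, 244 and 166, in the order homozygous against wild type, heterozygous against wild type, homozygous against heterozygous and F test, and Celf2 in homozygous against heterozygous and Ecrg4 in heterozygous against wild type lost their calls (limma adjusted p = 0.0747 and 0.0860). Deviations of same-numbered arrays correlated at -0.08, 0.01 and 0.02 across probes, so the numbers were not taken to pair the arrays. Without wild-type array 1 the log2 fold change of Snrpd3 turned to -0.145 in homozygous and -0.085 in heterozygous against wild type, and without wild-type array 2 it was 1.155 and 1.214; a genotype left with 1 array is assumed to vary like the others. Over all 50 splicing probes and 3 comparisons, a check extended after seeing the data, 46 of 150 differences turned direction without 1 array, 11 of them over 0.2 in size. Besides Snrpd3 these were Snrpb, Hnrnph1, Tra2b and the dim Hnrnpd in homozygous against wild type, Hnrnph1, Scaf11 and the dim Hnrnpd and Sf3a2 in heterozygous against wild type, and Tra2b in homozygous against heterozygous. In homozygous against wild type Snrpb was 0.12 without wild-type array 1, Tra2b 0.19 and Hnrnph1 -0.04 without wild-type array 2, and in heterozygous against wild type Scaf11 was -0.10 without wild-type array 1. The cause of these shifts was not tested. Signal over background limits Hnrnpd, Snrpb2, Sf3a2, Clasrp and the dimmer Snrpg probe.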

Other observations

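Values of some splicing genes differed by array number or stood out in a single array. The share of all probes that do so was not counted. Tra2b was lower in the array numbered 1 of each genotype, at 111.5, 165.5 and 135.9 in homozygous, heterozygous and wild-type arrays, against 216.6, 199.7 and 251.5 in the arrays numbered 2. Hnrnpl, Srek1, Hnrnpf, Hnrnpu, Hnrnpul1, Snrpd3 and the brighter Snrpg probe were also lower in array 1 of each genotype. Srsf7, Hnrnpk, Hnrnph1 and the dim Hnrnpd were higher there. In the remaining splicing probes array 1 was not on the same side in every genotype. Across all tested probes, deviations of same-numbered arrays correlated at -0.08, 0.01 and 0.02. Snrpd3, Snrpc and Scaf11 had their lowest value, and Snrpb and Snrnp70 their highest, in wild-type array 1. Other splicing probes had an extreme there too. Among them Srsf1, Srsf2 and Srsf5 read lowest, and Srsf9, Snrpd2 and Sfswap highest. With 1 array left out, their smallest log2 fold changes in homozygous against wild type were 0.72, 0.59 and 0.48 for the first genes. For Srsf9, Snrpd2 and Sfswap they were -0.54, -0.56 and -0.46. The wild-type arrays also differed most from each other over all tested probes.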
